A study of Mus musculus with 6 samples.

Results

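Nonmuscle myosin II and the RhoA to ROCK signal that switches it on were examined in C2C12 cells, a line of mouse myoblasts that forms myotubes when serum is lowered. The 10 genes were taken by name: the heavy chains *Myh9*, *Myh10* and *Myh14*, the regulatory light chains *Myl9*, *Myl12a* and *Myl12b*, the kinase *Mylk*, the GTPase *Rhoa*, and its effector kinases *Rock1* and *Rock2*. All 10 were found among the 55401 genes of the count matrix, and all 10 were among the 17310 genes that passed the filter on low counts. RNA sequencing covered 6 libraries, 3 of control cells and 3 of *Phf2* KO cells, each at 2 d post differentiation in medium with horse serum. *Phf2* KO cells had received 4 pooled plasmids with guides against *Phf2*, which encodes a histone demethylase, and control cells had received a plasmid with no such guide; the labels give the genotype of the controls as wild type. Each group was a sorted, non-cloned pool of cells, and the 3 libraries of a group were wells of a single experiment. The p-values therefore measure the spread between these wells, which may be technical, and a difference between the pools cannot be told apart from an effect of *Phf2*.

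Nonmuscle myosin II is built from a pair of heavy chains, which bind actin and hydrolyse ATP, with essential and regulatory light chains at their necks. Phosphorylation of the regulatory light chain by myosin light chain kinase or by ROCK lets the molecules assemble into filaments that pull on actin, and myosin phosphatase reverses it. In muscle precursors these motors serve stress fibres, migration and the early, premyofibril stage of sarcomere assembly, before sarcomeric myosins take over. Transcript levels were measured here, and neither protein nor phosphorylation was.

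The 6 libraries held totals of 52526109 to 67502788 estimated counts, and their scaling factors lay between 0.9954 and 1.004. The level of a gene within a library is given as CPM, its TMM-scaled count relative to the library total, and levels are compared between genes as TPM, which is also scaled by length. *Phf2* stood at 102.4, 95.5 and 104.6 CPM in control replicates 1 to 3 and at 41.1, 37.6 and 38.6 CPM in *Phf2* KO replicates 1 to 3. Every *Phf2* KO library was below every control library, with a log2 fold change of -1.37 (adjusted p = 8.32e-09, edgeR's quasi-likelihood test). The myotube markers *Ckm* and *Myh3* were abundant in all 6 libraries, and the summed level of the 10 myotube markers ran from 9455 to 11256 CPM in control cells and from 7482 to 8252 CPM in *Phf2* KO cells.

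Of the 10 genes, *Myh10* and *Myl9* rose in *Phf2* KO cells and none fell. An adjusted p under 0.05 in edgeR's quasi-likelihood test, adjusted by Benjamini-Hochberg over all genes tested, was the threshold. Of all genes tested, 6.48% passed it, 3.22% higher and 3.26% lower in *Phf2* KO cells. The fold changes of 7 of the 10 genes were above zero and those of 3 below, with a median log2 fold change of 0.06, beside a median of 0.00 over all genes tested; those of *Rhoa*, *Myl12a* and *Myl12b* were near zero and changed sign in some alternatives. In CPM, every *Phf2* KO library lay above every control library for *Myh10*, *Myl9*, *Mylk*, *Rock1* and *Rock2*, and none of the 10 showed the opposite. Among all genes tested, 25.1% did not overlap between the groups, 12.9% wholly above and 12.2% wholly below. In bulk RNA, fewer cells of a type and less RNA per cell cannot be told apart.

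**Figure D1:**
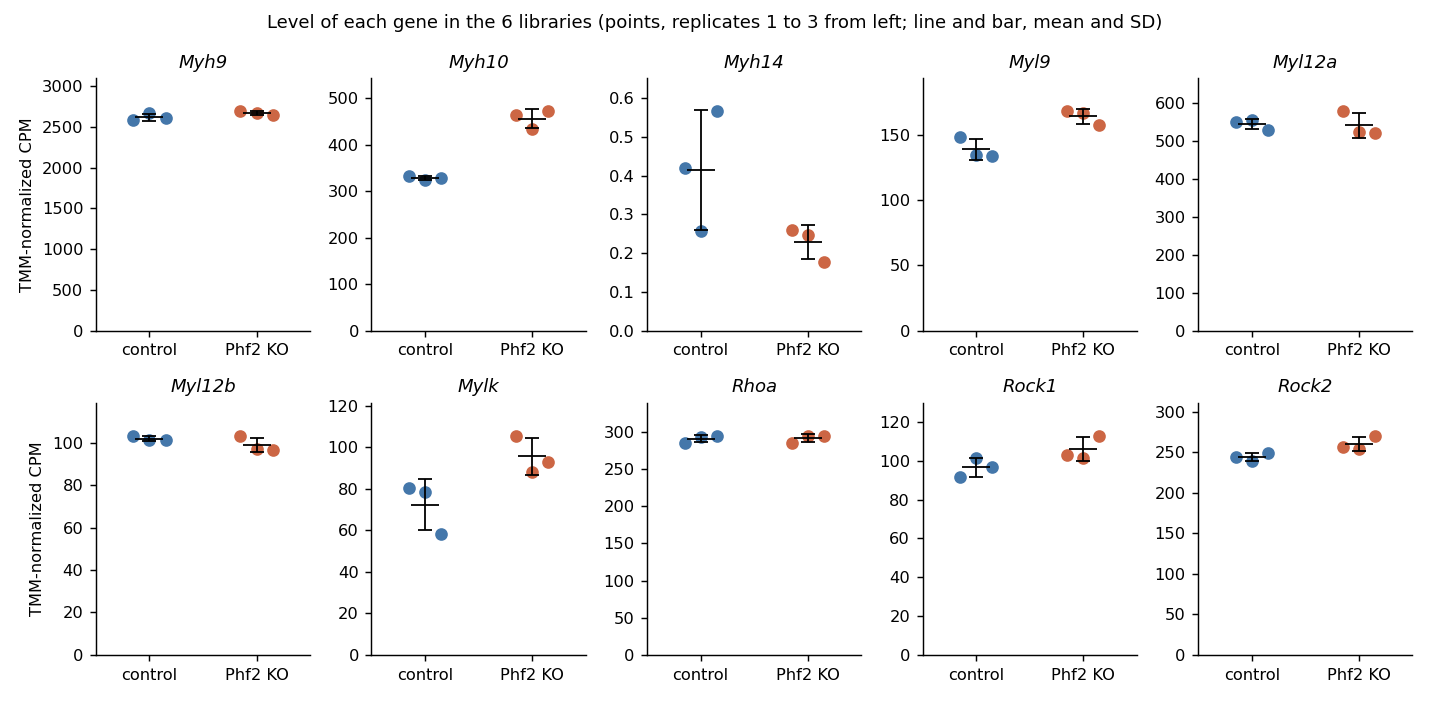
Each panel plots 1 gene, with its level in TMM-normalized CPM on the y axis, which starts at 0, and the control and *Phf2* KO libraries on the x axis; points are libraries, and the line and bar are the mean and SD of 3. *Myh10* rises from between 324.6 and 332.5 to between 433.7 and 472.3 CPM, *Myl9* by less, and *Myh9*, *Rhoa*, *Myl12a* and *Myl12b* overlap between the groups.

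The heavy chains were led by *Myh9* (ENSMUSG00000022443, chr15:77760587-77842175, minus strand, mm10), which encodes the heavy chain of nonmuscle myosin IIA. Its level was 2583, 2668 and 2609 CPM in control replicates 1 to 3 and 2694, 2669 and 2649 CPM in *Phf2* KO replicates 1 to 3. In CPM the groups overlapped within a narrow range. In TPM they did not, with at most 776 in control and at least 780 in *Phf2* KO libraries. Limma on log2(TPM + 1) gave a log2 fold change of 0.04 (adjusted p = 0.696). By its mean CPM in control cells, which is not scaled by length, *Myh9* ranked 23 among all genes tested. The log2 fold change was 0.03 ± 0.030 (SE), with a 95% interval from -0.04 to 0.09 and an adjusted p of 0.703 in edgeR's quasi-likelihood test.

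*Myh10* (ENSMUSG00000020900, chr11:68691559-68816632, plus strand, mm10) encodes the heavy chain of nonmuscle myosin IIB, which releases actin more slowly than IIA and holds tension for longer. It was measured at 332.5, 324.6 and 328.2 CPM in control replicates 1 to 3 and at 464.0, 433.7 and 472.3 CPM in *Phf2* KO replicates 1 to 3. The lowest *Phf2* KO library was far above the highest control library. Its level rose 1.39-fold, a log2 fold change of 0.48 ± 0.042 (SE, 95% interval 0.38 to 0.57), with an adjusted p of 3.18e-05 in edgeR's quasi-likelihood test. By p, *Myh10* ranked 15 among all genes tested. Its change was larger than that of most genes past the threshold. These 1122 genes had a median absolute log2 change of 0.33, and 790 of them changed by less than *Myh10*.

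The call of *Myh10* held in each of the 13 other fits to all libraries, with log2 fold changes of 0.46 to 0.48, and in each of the 6 fits that left out a library, with 0.45 to 0.51. The coding sequences of *Myh9* and *Myh10* were 75.2% identical over aligned bases, with gaps left out. Of the 100-base stretches of *Myh10* transcripts, however, 0.215% occurred in another gene. *Myh14* (ENSMUSG00000030739, chr7:44605803-44670843, minus strand, mm10), the heavy chain of nonmuscle myosin IIC, was close to absent. Its estimated counts were 24, 15 and 33 in control replicates 1 to 3 and 16, 13 and 12 in *Phf2* KO replicates 1 to 3. *Phf2* KO replicates 2 and 3 were below every control library and replicate 1 was not. The log2 fold change of -0.86 had a 95% interval from -2.11 to 0.39 (adjusted p = 0.479 in edgeR's quasi-likelihood test), so no difference was detectable at this depth.

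Because the heavy chains form separate isoforms, their make-up was compared within each library as the share of the summed TPM of *Myh9*, *Myh10* and *Myh14*. The share of *Myh10* was 11.1%, 10.5% and 10.6% in control replicates 1 to 3 and 14.1%, 13.4% and 14.1% in *Phf2* KO replicates 1 to 3. The groups did not overlap, and the mean went from 10.7% ± 0.335 to 13.9% ± 0.406 (SD, n = 3 each), a difference of 3.16 percentage points with a two-sided exact permutation p of 0.1, the smallest p that 3 libraries against 3 allow. The summed TPM of the nonmuscle heavy chains was 860 ± 7.62 in control and 914 ± 14.5 in *Phf2* KO cells (SD, n = 3 each), again with no overlap and an exact permutation p of 0.1.

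The sarcomeric heavy chains, also of the myosin II family, moved in the direction opposite to *Myh10*. Of 9 sarcomeric heavy chain genes, 8 fell and none rose in edgeR's quasi-likelihood test, with a median log2 fold change of -0.93, and their summed TPM was 1192 ± 117 in control and 821 ± 78.2 in *Phf2* KO cells (SD, n = 3 each). *Myh11*, the smooth muscle heavy chain, stood at a mean of 0.07 TPM in each group. The nonmuscle share of all myosin II heavy chain TPM was 40.4%, 40.7% and 44.8% in control replicates 1 to 3 and 53.6%, 54.1% and 50.5% in *Phf2* KO replicates 1 to 3. Every *Phf2* KO library was higher than every control library, by 10.8 percentage points on average (exact permutation p = 0.1, two-sided). The sarcomeric sum moved by -371 TPM and the nonmuscle sum by 54.6 TPM.

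**Figure D2:**
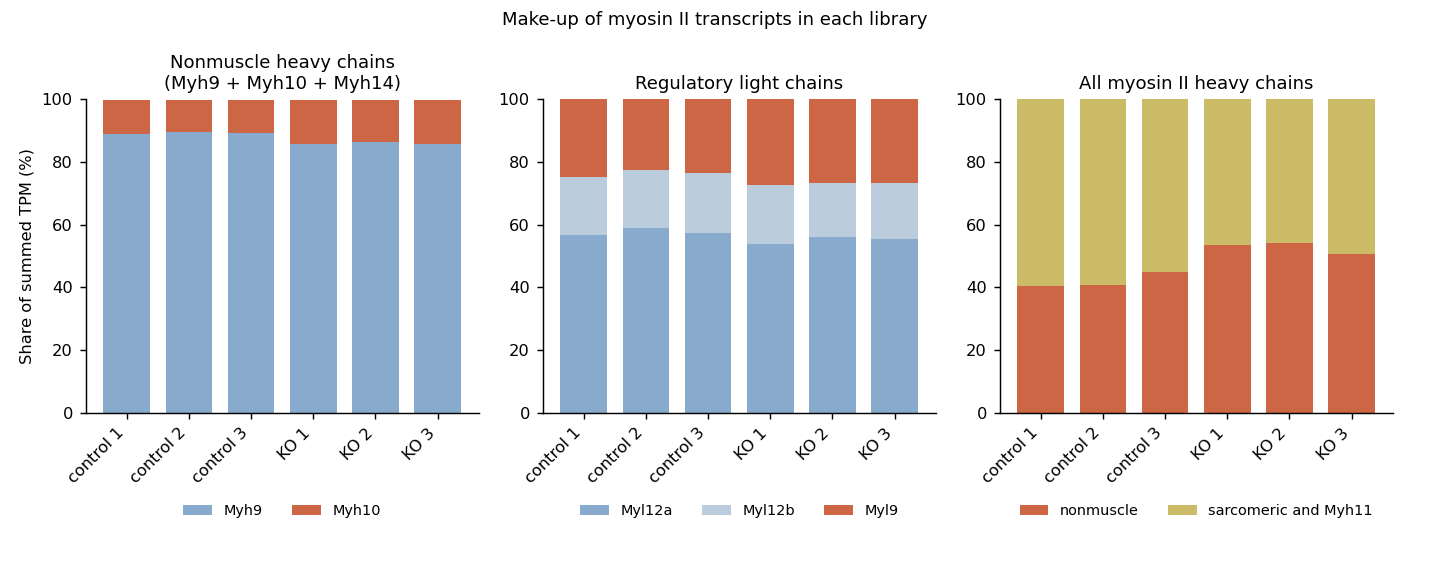
Stacked bars give, for each of the 6 libraries on the x axis, the share of summed TPM in percent on the y axis, for nonmuscle heavy chains (left; *Myh14* is too small to see), regulatory light chains (middle) and all myosin II heavy chains (right). The *Myh10* and *Myl9* shares are larger in each *Phf2* KO library than in each control library, and the nonmuscle share goes from a mean of 42.0% to 52.7%.

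The regulatory light chains carry the residues on which the pathway converges. The coding stretch around them is shown for the 3 light chain genes, since it marks both the shared target of the kinases and how alike the transcripts are. Each line gives 60 bases, 5′ to 3′, from the GENCODE M21 transcripts (GRCm38, the assembly of mm10), and the capitals mark the threonine and serine codons that are phosphorylated, residues 18 and 19 in the usual numbering of *Myl9* and *Myl12b*.
*Myl9*: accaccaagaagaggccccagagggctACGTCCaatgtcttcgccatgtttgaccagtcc
*Myl12a*: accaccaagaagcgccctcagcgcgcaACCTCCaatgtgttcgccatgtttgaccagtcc
*Myl12b*: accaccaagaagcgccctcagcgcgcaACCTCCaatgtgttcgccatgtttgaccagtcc
In this stretch *Myl12a* and *Myl12b* were identical and *Myl9* differed from them at 8 of 60 bases. Over the aligned bases of the coding sequences, with gaps left out, *Myl12a* and *Myl12b* were 96.5% identical. By the same measure *Myl9* was 85.5% identical to *Myl12a* and 86.3% to *Myl12b*.

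*Myl9* (ENSMUSG00000067818, chr2:156775420-156781658, plus strand, mm10) encodes the light chain that is prominent in smooth muscle and is also found in nonmuscle cells. Its level was 148.1, 134.4 and 134.1 CPM in control replicates 1 to 3 and 168.1, 166.8 and 157.7 CPM in *Phf2* KO replicates 1 to 3. Control replicate 1 was the highest of the controls and still below the lowest *Phf2* KO library. The level rose 1.18-fold, a log2 fold change of 0.24 ± 0.051 (SE, 95% interval 0.13 to 0.35), with an adjusted p of 0.0108 in edgeR's quasi-likelihood test. This call was less stable than that of *Myh10*. It was lost without control replicate 2 (adjusted p = 0.0787), without control replicate 3 (adjusted p = 0.0571) and without *Phf2* KO replicate 2 (adjusted p = 0.0584, all by edgeR's quasi-likelihood test), and limma on log2(TPM + 1) gave an adjusted p of 0.0787. Over its alternatives with all libraries the adjusted p ran from 0.000451 to 0.0787, and the log2 fold change stayed between 0.22 and 0.29 throughout.

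*Myl12a* (ENSMUSG00000024048, chr17:70993656-71002878, minus strand, mm10) and its neighbour *Myl12b* (ENSMUSG00000034868, chr17:70973133-70990890, minus strand, mm10) encode the nonmuscle light chains proper. *Myl12a* stood at 550.0, 554.6 and 528.9 CPM in control replicates 1 to 3 and at 578.5, 524.2 and 520.9 CPM in *Phf2* KO replicates 1 to 3. *Myl12b* stood at 103.3, 101.2 and 101.2 CPM in control replicates 1 to 3 and at 103.0, 97.1 and 96.8 CPM in *Phf2* KO replicates 1 to 3. In both genes *Phf2* KO replicate 1 lay among the controls or above them and the other two *Phf2* KO libraries were lowest. The log2 fold changes were -0.01 for *Myl12a* (95% interval -0.11 to 0.09, adjusted p = 0.951) and -0.04 for *Myl12b* (95% interval -0.14 to 0.05, adjusted p = 0.681), both by edgeR's quasi-likelihood test.

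The counts of this pair of genes are uncertain. A further annotated gene, *Gm49909* (ENSMUSG00000117098, chr17:70974119-71002208, minus strand), spans both on the same strand and took 299 CPM in control and 294 CPM in *Phf2* KO cells. The GENCODE M21 transcripts give this gene the symbol *Myl12b* as well, while the count matrix lists it as *Gm49909*. Of the 100-base stretches in their transcripts, 13.1% of those of *Myl12a* and 24.0% of those of *Myl12b* also occur in another gene, *Gm49909* above all. When the counts of the 3 genes were added, a step chosen after seeing the data, the locus stood at 946 ± 9.95 CPM in control and 934 ± 41.1 CPM in *Phf2* KO cells (SD, n = 3 each), with a log2 fold change of -0.02 and an adjusted p of 0.864 in edgeR's quasi-likelihood test. *Myl9* shared no 100-base stretch with another gene. *Myom1*, a sarcomere gene on the strand opposite to *Myl12a*, moved from 92.4 to 69.2 CPM, and the sources used here do not state whether the counting used the strand of the reads.

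As a share of the summed TPM of the light chains, *Myl9* made up 24.6%, 22.7% and 23.6% in control replicates 1 to 3 and 27.4%, 26.7% and 26.6% in *Phf2* KO replicates 1 to 3. The groups did not overlap, and the mean share was 3.31 percentage points higher in *Phf2* KO cells (two-sided exact permutation p = 0.1). With *Gm49909* counted among the light chains, chosen after seeing the data, the share of *Myl9* went from 11.5% to 12.7%, a difference of 1.18 percentage points with the same p of 0.1 in the exact permutation test and no overlap.

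Promoter windows of *Myh10* and *Myl9* are shown because these were the genes of the set that rose. Promoter entries (RefSeq, GRCm38.p6, from 250 bases before to 50 after the RefSeq start) matched 9 of the 10 genes, with no entry for *Rock1*. The RefSeq starts used were chr11:68691915 for *Myh10* and chr2:156775464 for *Myl9*. Both lie downstream of the first bases of the genes given above, so the *Myh10* window falls inside its gene. A pair of motifs was searched on both strands: the CArG box, bound by SRF, and GGAATG, the MCAT core bound by TEAD factors. The capitals mark the CATTCC in *Myh10*, which is GGAATG on the other strand, and the CArG box in *Myl9*.
*Myh10*, chr11:68691665-68691914, plus strand: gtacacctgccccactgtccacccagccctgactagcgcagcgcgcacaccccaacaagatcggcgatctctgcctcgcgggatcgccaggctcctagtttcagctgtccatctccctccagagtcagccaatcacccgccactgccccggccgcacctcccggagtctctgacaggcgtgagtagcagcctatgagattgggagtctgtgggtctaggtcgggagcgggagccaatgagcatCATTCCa
*Myl9*, chr2:156775214-156775413, plus strand: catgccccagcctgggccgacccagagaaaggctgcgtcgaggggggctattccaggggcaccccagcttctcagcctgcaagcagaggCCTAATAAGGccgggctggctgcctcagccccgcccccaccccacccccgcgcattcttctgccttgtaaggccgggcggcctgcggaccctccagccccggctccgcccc
The GGAATG match of *Myh10* began 7 bases before its RefSeq start, and the CArG box of *Myl9* began 161 bases before its own. The CArG box was found in 1 of the 9 genes and in 1.63% of the 32851 promoters searched. GGAATG was found in 3 of the 9, *Myh10*, *Myl12a* and *Mylk*, and in 14.7% of all promoters. A match is a stretch of letters and not a measured binding site.

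*Mylk* (ENSMUSG00000022836, chr16:34745210-35002420, plus strand, mm10) encodes the calcium- and calmodulin-dependent kinase of the light chain. Its level was 80.3, 78.5 and 58.5 CPM in control replicates 1 to 3 and 105.6, 88.3 and 93.0 CPM in *Phf2* KO replicates 1 to 3. All *Phf2* KO libraries were higher than all control libraries, but control replicate 3 was well below the other two controls, and the SD of the controls was 16.7% of their mean. The log2 fold change was 0.40 ± 0.145 (SE, 95% interval 0.03 to 0.77), with an adjusted p of 0.221 in edgeR's quasi-likelihood test. Its call depended on the fit. The adjusted p was 0.0128 with edgeR's exactTest, 0.0448 with the replicate number as a block and 0.0445 without control replicate 3, where the log2 fold change was 0.27. On log2(TPM + 1) the log2 fold change was 0.05 (adjusted p = 0.928 by limma), and over all alternatives the adjusted p ran from 0.0128 to 0.933. The ratio of CPM to TPM was 21.9 for *Mylk* and from 0.473 to 4.20 for the other 9 genes, so the TPM of *Mylk* was not read as its level.

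**Figure D3:**
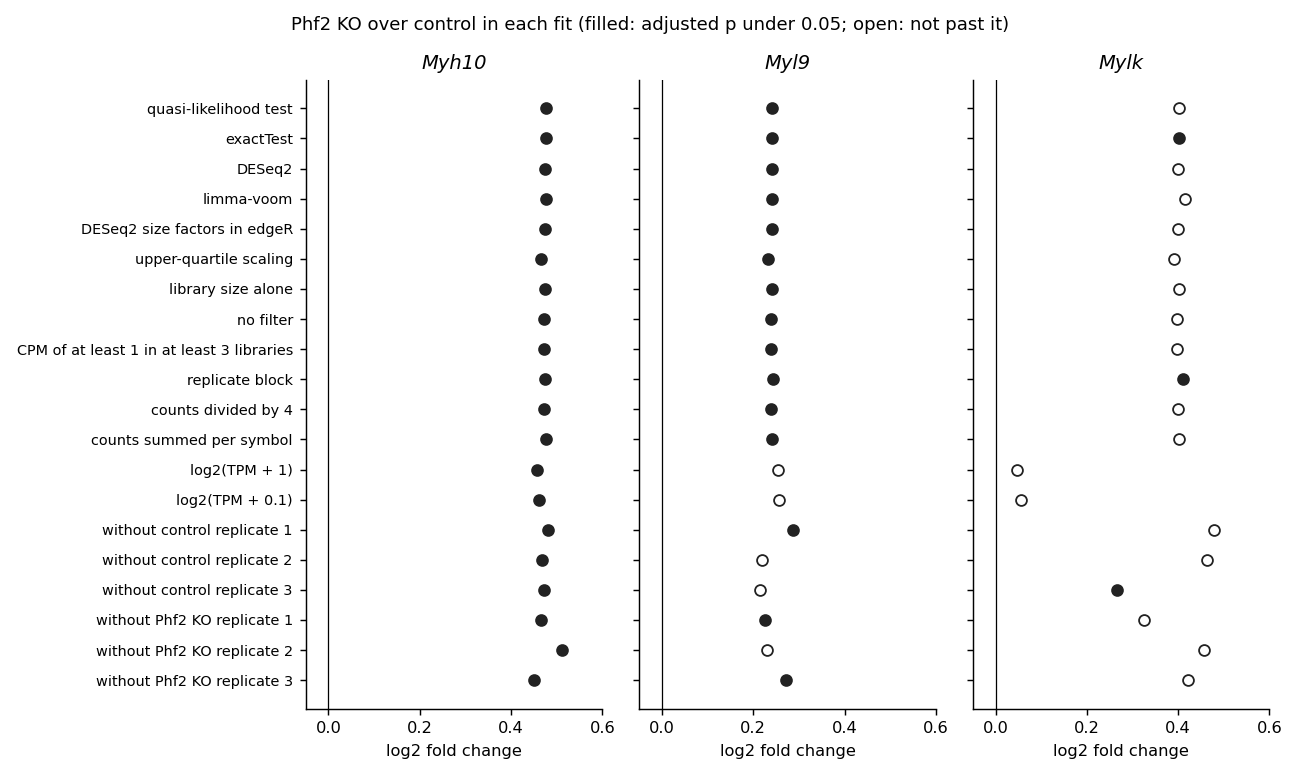
Log2 fold changes of *Myh10*, *Myl9* and *Mylk*, *Phf2* KO over control (x axis), in each fit (y axis: the test used, the 13 other fits to all libraries and the 6 that leave out a library); filled points passed an adjusted p of 0.05. *Myh10* stays filled and near 0.48 throughout, *Myl9* stays near 0.24 with 5 open points, and *Mylk* is filled in 3 fits and drops to 0.05 and 0.06 in the fits to TPM.

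*Rhoa* (ENSMUSG00000007815, chr9:108306129-108337934, plus strand, mm10) encodes the GTPase that activates ROCK when bound to GTP. It stood at 285.8, 292.8 and 295.1 CPM in control replicates 1 to 3 and at 285.9, 294.8 and 294.7 CPM in *Phf2* KO replicates 1 to 3. The groups covered the same range. The log2 fold change was 0.00 ± 0.040 (SE, 95% interval -0.08 to 0.09, adjusted p = 0.985 by edgeR's quasi-likelihood test). Its closest relatives were not called either, with log2 fold changes of 0.09 for *Rhob* (adjusted p = 0.398) and 0.14 for *Rhoc* (adjusted p = 0.159) in the same edgeR fit.

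*Rock1* (ENSMUSG00000024290) and *Rock2* (ENSMUSG00000020580, chr12:16894895-16987823, plus strand, mm10) encode the kinases that phosphorylate the light chain and restrain myosin phosphatase. *Rock1* stood at 91.7, 101.4 and 96.9 CPM in control replicates 1 to 3 and at 102.9, 101.7 and 113.0 CPM in *Phf2* KO replicates 1 to 3. *Rock2* stood at 244.3, 239.6 and 249.5 CPM in control replicates 1 to 3 and at 257.1, 254.6 and 270.5 CPM in *Phf2* KO replicates 1 to 3. In CPM the groups did not overlap in either gene, with *Phf2* KO replicate 3 highest in both, and for *Rock1* the gap between them was under 1 CPM. In TPM the groups overlapped in both genes. Limma on log2(TPM + 1) gave log2 fold changes of 0.09 for *Rock1* (adjusted p = 0.713) and 0.01 for *Rock2* (adjusted p = 0.961). The log2 fold change was 0.13 for *Rock1* (95% interval 0.02 to 0.25, adjusted p = 0.191) and 0.09 for *Rock2* (95% interval 0.00 to 0.18, adjusted p = 0.249), neither past the threshold in edgeR's quasi-likelihood test. Unadjusted p-values were under 0.05 for 5 of the 10 genes, these and *Mylk* included, and for 19.4% of all genes tested. The share of *Rock2* in the summed TPM of the pair was 66.8% ± 0.656 in control and 65.5% ± 2.81 in *Phf2* KO cells (SD, n = 3 each), with overlapping groups and an exact permutation p of 0.7.

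Ordered by TPM, which is per length, the control cells held most *Myh9* (767), then *Myl12a* (652), *Rhoa* (287), *Myl9* (267), *Myl12b* (212), *Myh10* (92.2), *Rock2* (65.9), *Rock1* (32.7) and *Myh14* (0.0997), with *Mylk* left out. Only *Rhoa* and *Myl9* had overlapping ranges as neighbours in that order. In *Phf2* KO cells *Myl9* (319 TPM) stood above *Rhoa* (290 TPM) without overlap, *Myh10* stood at 127 TPM, and the order was otherwise as in control cells, with no neighbours overlapping. *Gm49909* was listed at 1193 TPM in control cells, above each of these genes, so the place of *Myl12a* and *Myl12b* depends on how reads of that locus were divided.

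The genes whose log2 CPM followed *Myh10* most closely over the 6 libraries were sought among the 10922 genes that averaged 5 CPM or more. They were *Palld* (Pearson r = 0.995), which encodes the actin-bundling stress fibre protein palladin, *Aspn* (r = 0.994), which encodes the matrix proteoglycan asporin, and *Twsg1* (r = 0.993), which encodes a secreted BMP-binding protein. Their own log2 fold changes were 0.29, 0.37 and 0.26. The 6 points come from the same libraries in 2 groups, so the likeness is a description over those groups. Among the other genes described, *Myl9* (r = 0.891) and *Rock2* (r = 0.875) followed *Myh10* most closely and *Myl12b* ran opposite to it (r = -0.526).

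Around these 10 genes, a wider list of 103 genes of the contractility pathway was counted, of which 98 were tested. In edgeR's quasi-likelihood test 15 of the 98 passed the threshold (15.3%, beside 6.48% of all genes), 7 higher and 8 lower in *Phf2* KO cells, and the median log2 fold change was 0.03. With the replicate number as a block the split was 9 higher and 6 lower, and *Ssh2* (adjusted p = 0.0541) and *Synpo2* (adjusted p = 0.0544) lost their calls in that edgeR fit. *Cald1*, *Flna*, *Net1*, *Ppp1cb* and *Rnd3* passed in each fit that left out a library, and all 5 were higher. In those fits 5 to 7 genes of the list were higher and 0 to 7 lower. Of the lower calls, 0 were left without control replicate 2, 1 without *Phf2* KO replicate 2, 1 without *Phf2* KO replicate 3 and 3 without control replicate 1. Both fits to log2 TPM called 0 of 98.

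Upstream of ROCK, *Rnd3*, whose product binds and inhibits ROCK1, stood at 134.1, 130.4 and 144.8 CPM in control replicates 1 to 3 and at 169.0, 172.9 and 178.0 CPM in *Phf2* KO replicates 1 to 3. It was clearly separated between the groups, and it rose by a log2 fold change of 0.35 ± 0.049 (SE, adjusted p = 0.000778 in edgeR's quasi-likelihood test). *Net1*, an exchange factor that loads RhoA with GTP, was the 1 gene of 13 exchange factors past the threshold and rose by 0.33 (adjusted p = 0.00239, edgeR). *Stard13*, which speeds GTP hydrolysis by RhoA, was the 1 gene of 15 GTPase-activating proteins past it and had a log2 fold change of -0.21 (adjusted p = 0.0152, edgeR), a call kept in 4 of the 6 fits that left out a library.

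At the light chain itself, *Ppp1cb*, the catalytic subunit of myosin phosphatase, was the 1 gene of 8 in its list past the threshold. It stood at 177.2, 173.9 and 182.5 CPM in control replicates 1 to 3 and at 211.0, 209.0 and 221.3 CPM in *Phf2* KO replicates 1 to 3. Every *Phf2* KO library was above every control library, and *Ppp1cb* rose by a log2 fold change of 0.27 ± 0.044 (SE, adjusted p = 0.00242 in edgeR's quasi-likelihood test). Its targeting subunit *Ppp1r12a*, named after its values were seen, had a log2 fold change of 0.16 with an adjusted p of 0.0504 in the same edgeR fit. A related targeting subunit, *Ppp1r12b*, went the other way, at -0.21 (adjusted p = 0.073, edgeR). Of the 8 genes of this list, 4 had fold changes above zero and 4 below. Among 8 other kinases of the light chain, the MRCK kinase *Cdc42bpa* rose by 0.21 (adjusted p = 0.0136, edgeR) and its relative *Cdc42bpg* fell by 0.36 on the log2 scale (adjusted p = 0.0296, edgeR). The call of *Cdc42bpa* held in 3 and that of *Cdc42bpg* in 1 of the 6 fits that left out a library. *Coq8a*, on the strand opposite to *Cdc42bpa*, went from 34.3 to 22.9 CPM.

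Among partners of the motor, *Flna*, the actin crosslinker filamin A, stood at 2399, 2441 and 2439 CPM in control replicates 1 to 3 and at 2748, 2805 and 2779 CPM in *Phf2* KO replicates 1 to 3. The groups were far apart relative to their spread, with a log2 fold change of 0.19 ± 0.030 (SE, adjusted p = 0.00145 in edgeR's quasi-likelihood test). *Cald1*, which encodes caldesmon, an actin-binding brake on myosin, rose from 875 ± 45.6 to 1038 ± 41.3 CPM (SD, n = 3 each), a log2 fold change of 0.25 (adjusted p = 0.00429, edgeR). Lower were *Myl6b*, an essential light chain, at a log2 fold change of -0.61 (adjusted p = 0.0194, edgeR), *Myo18a*, an unconventional myosin that joins nonmuscle myosin II filaments, at -0.21 (adjusted p = 0.0163, edgeR), and *Synpo2*, an actin-bundling protein of stress fibres and Z-discs, at -0.20 (adjusted p = 0.0396, edgeR). In the 6 fits that left out a library, *Myl6b* kept its call in 4, *Myo18a* in 2 and *Synpo2* in 1. Another essential light chain, *Myl6*, did not pass, at a log2 fold change of 0.12 (adjusted p = 0.104, edgeR). It was the more abundant, at a mean of 708 CPM in control cells beside 118 CPM for *Myl6b*.

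Of 20 other substrates and effectors, 3 passed the threshold in edgeR's quasi-likelihood test: *Add1*, an adducin that ROCK phosphorylates, with a log2 fold change of 0.16 (adjusted p = 0.0390), the membrane linker *Ezr*, with -0.23 (adjusted p = 0.0232), and the cofilin phosphatase *Ssh2*, with -0.23 (adjusted p = 0.0491). *Ssh2* and *Add1* were lost in every fit that left out a library, *Ezr* kept its call in 2 of 6, and *Ssh2* turned direction in both fits to log2 TPM. *Gm12346*, on the same strand within *Ssh2*, was measured at 15.1 CPM in control cells. None of the 3 genes tested among SRF and its cofactors passed, and their log2 fold changes lay between 0.00 and 0.09.

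**Figure D4:**
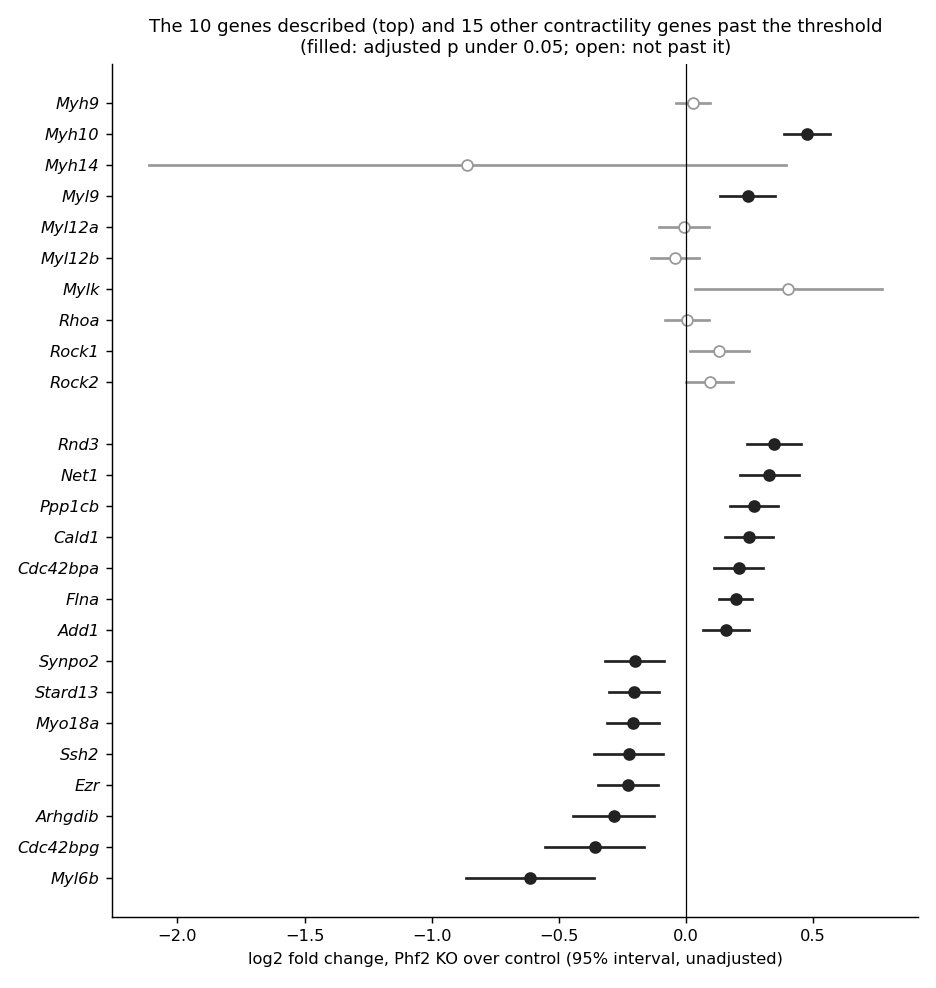
Log2 fold changes, *Phf2* KO over control, on the x axis with unadjusted 95% intervals as bars, for the 10 genes described (upper block) and the 15 other contractility genes past the threshold (lower block); filled points passed an adjusted p of 0.05. *Myh10* has the largest rise of those filled, at 0.48, and *Myl6b* the largest fall, at -0.61.

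Markers of cell states differed in how far they moved, and their part in these results was not tested. Of the 10 myotube markers, 6 were lower past the threshold in edgeR's quasi-likelihood test and none was higher. Of 10 markers of proliferating myoblasts none passed, with summed levels of 382 to 423 CPM in control and 448 to 460 CPM in *Phf2* KO cells. Most of that gap was *Id3*, at means of 96.8 and 136.8 CPM (log2 fold change 0.50, adjusted p = 0.0661, edgeR), while the 6 cell cycle genes of the list had log2 fold changes of -0.11 to 0.04. Of 6 smooth muscle or myofibroblast markers tested, *Acta2* (log2 fold change 0.17) and *Tagln* (0.25) were higher. *Lmod1* (0.26), *Cnn1* (-0.52), *Smtn* (-0.10) and *Myh11* (-0.06) did not pass. The summed level of that list, nearly all of it *Acta2*, was 3431 to 3504 CPM in control and 3772 to 3961 CPM in *Phf2* KO cells, while its defining heavy chain *Myh11* was below 1 CPM in every library. Of 7 fibroblast markers tested, *Col1a1* and *Col1a2* were higher, while the most abundant, *Col3a1* (log2 fold change -0.11), and *Lum* (-0.21) did not pass. The sums of the list were 23091 to 24609 CPM and 23763 to 25383 CPM, and *Thy1* was at 0 in all 6 libraries. Endothelial markers summed to at most 0.79 CPM and leukocyte markers to at most 2.49 CPM, with *Adgre1* at 0 in all 6 libraries.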

How the data were processed

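Polyadenylated RNA of 3 control and 3 *Phf2* KO cultures was sequenced by the authors, aligned to mm10 with HISAT2 and quantified with StringTie; versions are not given in the sources used here. The deposited matrix holds StringTie's estimated counts, rounded to whole numbers and without normalization. They are not tallies of reads: covered bases per count had a median of 74.98 to 74.99 in genes of a single transcript. The deposited tables of each library hold TPM, a signal scaled by the authors within the library, and the mean coverage, used only for that check. Columns without a sample numbered 0.

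With edgeR 4.0.16 in R 4.3.3, counts passed filterByExpr at a minimum count of 10, were TMM-scaled and entered the robust quasi-likelihood test, with Benjamini-Hochberg adjustment over 17310 genes and a threshold of 0.05. The common biological coefficient of variation was 0.135. For shares of TPM, a two-sided exact permutation test was run over the 6 libraries, with a smallest possible p of 0.1. Alternatives were limma-voom (limma 3.58.1), edgeR's exactTest, DESeq2 1.42.0 and its size factors in edgeR, scaling by upper quartile or by library size alone, a filter of 1 CPM in 3 libraries or none, a block on the replicate number, counts divided by 4, counts summed per symbol, limma on log2(TPM + 1) and log2(TPM + 0.1), shares of CPM in place of TPM, and leaving out each library. The procedure was tested on simulated data.

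The labels share replicate numbers between the groups. Deviations from the group mean correlated at 0.235, 0.258 and 0.168 between libraries of the same number and at most at -0.00193 between others, across 10923 genes. The deviations of a group cancel out, so positive values at matching numbers force lower ones elsewhere. The numbers may therefore pair the samples, but this was not established. No source describes a pairing, and the study's test had none.

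Named were *Phf2*, the 10 genes and up to 5 genes past the threshold of each pathway list. Also named were *Rhob*, *Rhoc*, the 3 genes most like *Myh10*, and markers where needed. *Gm49909*, *Gm12346*, *Myom1*, *Coq8a*, *Ppp1r12a*, *Ppp1r12b* and *Myl6* were named after their values were seen. Genes and lists were chosen with earlier results of these data known. Gene coordinates are those the authors deposited with control replicate 1 (mm10). Figures were drawn with matplotlib 3.10.9.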

Additional observations from a re-analysis of the deposited data

How the results depend on the processing

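Across the alternatives *Myh10* kept its call throughout, while *Myl9* lost it in 5. The fits to log2(TPM + 1) and log2(TPM + 0.1) called 127 genes (57 higher, 70 lower) and 153 genes (65 higher, 88 lower), of which 1 was among the 10 and was higher, and 0 of the pathway list in either direction; limma-voom called 5 pathway genes lower. With each library left out in turn, 468 to 1039 genes were called (206 to 507 higher, 262 to 532 lower), 1 to 2 of the 10 (all higher), and 6 to 13 of the pathway list, 5 to 7 higher and 0 to 7 lower. The lowest totals of genes (468) and of pathway genes (6) came without control replicate 2, and without *Phf2* KO replicates 2 and 3 the genes called were 577 and 613. Of the 10, 1 was called without control replicate 2 or *Phf2* KO replicate 2, and without control replicate 3 *Mylk* stood in place of *Myl9*. In these fits the differences in share lay within 3.04 to 3.39 points for *Myh10*, 2.83 to 3.81 for *Myl9* and 9.95 to 12.2 for nonmuscle heavy chains, and from -2.43 to 0.22 for *Rock2*, which turned direction without *Phf2* KO replicate 3.

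With CPM in place of TPM the differences in share were 3.46 (*Myh10*), 2.75 (*Myl9*), 11.1 (nonmuscle) and -0.53 points (*Rock2*). Near zero, signs turned with the setting: *Myl12a* to 0.000536 and 0.000537 and *Myl12b* to 0.00355 and 0.00356 on log2(TPM + 1) and log2(TPM + 0.1), *Rhoa* to -0.00727 with upper-quartile scaling, -0.00116 with no filter and -0.00075 with the CPM filter. Without a library *Myl12a* ranged from -0.0588 to 0.0184 and *Rhoa* from -0.0133 to 0.0181, and *Ssh2* turned to 0.0956 and 0.130 in the TPM fits; the cause was not tested. With the replicate block 1316 genes were called, 3 of the 10 with *Mylk* added, and the paired exact p of the *Myh10*, *Myl9* and nonmuscle shares was 0.25, the smallest that 3 pairs allow, and 1.0 for *Rock2*. The block changed no other call among the 10, and of the pathway list it called 9 higher and 6 lower. DESeq2 gave *Myh14* a log2 fold change of -0.87 but no adjusted p. With the CPM filter or with counts divided by 4, *Myh14* was not among the genes tested. Counts of 12 to 33 limit *Myh14*, and 3 libraries a group limit the rest.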
